A study of Homo sapiens with 6 samples.

Results

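The 45 genes described here encode proteins of the large subunit of the cytoplasmic ribosome, and were chosen by name out of 62703 gene identifiers counted in each library. All 45 were found by symbol, and all 45 were among the 16929 genes that passed the filter on low counts. Total RNA, depleted of globin transcripts during library preparation, came from the SEM line, which was established from a B-cell precursor leukaemia and carries the KMT2A::AFF1 fusion. All 6 cultures were reverse transfected with Lipofectamine RNAiMAX and forward transfected 24 h later. In the knock-down group (KD, 3 libraries) the cells received 2 Dicer-substrate siRNAs that target the back-splicing junction of AK_8_2, a circular RNA of the fusion gene. The negative controls (NC, 3 libraries) received a commercial non-targeting duplex. SEM is 1 cell line, and gene counts do not measure the circle itself, so the extent of silencing was not measured here. The comparison asks whether the messenger RNA levels of these genes differ between KD and NC. In bulk RNA, fewer cells of a type and less RNA per cell cannot be told apart.

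The large subunit carries the site of peptide bond formation and the tunnel through which the new protein leaves. Its proteins are encoded by single-copy genes scattered over the genome, and their messenger RNAs are among the most abundant in growing cells. Most of these messenger RNAs begin with a cytosine and a tract of pyrimidines, the 5′ terminal oligopyrimidine (TOP) tract, through which their translation follows growth signals. The genome also holds many processed pseudogenes, reinserted copies of these messenger RNAs, and reads of such copies are hard to tell from reads of the parent gene.

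Gene counts per library ran from 14750579 to 26694160. Both replicate 1 libraries were unlike the rest: 48.59% and 50.03% of their records fell on no annotated feature, while the range elsewhere was 11.34% to 17.34%. KD replicate 3 had the highest share of multiply aligned records (31.51%) and of mitochondrial ribosomal RNA (6.79% of gene counts, at most 1.34% elsewhere). The 9 B-cell precursor markers summed to between 1513 and 2036 CPM (the usual unit of counts relative to the library total, scaled by trimmed mean of M-values, TMM) in KD and between 1566 and 2049 in NC. The 4 T-cell markers summed to 12.9 and 12.4 CPM in the replicate 1 libraries of KD and NC and to between 0.131 and 0.420 in the other 4. Sums were 5.50 to 12.2 CPM for 4 myeloid, 0 to 2.53 for 4 erythroid and 3.48 to 22.1 for 4 stromal or epithelial markers, each highest in replicate 1. Genes with any count numbered 53121 and 52077 in the replicate 1 libraries of KD and NC, and 30641 to 32311 in the other 4. Low counts there were thus not limited to marker genes. No marker gene was at 0 in all 6 libraries. The part of these library differences in the results below was not tested. Values by library or by pair are given for most named members, with values that leave libraries out for some fold changes, the large-subunit share and the subunit ratio.

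The start regions of most of the genes hold such a tract. RefSeq start windows (GRCh38.p14, 250 bases before to 50 after the annotated start) were used for 38 of the 45 genes, all but RPL5, RPL7, RPL8, RPL23, RPL23A, RPL30 and RPL37. A TOP-like tract is here at least 5 unbroken C or T, counted from a C within 3 bases of the annotated start. Pyrimidines may also precede that C. Such a tract was found in 28 of these 38 windows (73.7%). It was found in 13.7% of 15273 protein-coding genes and 13% of all 35116 windows, and in 20 of 25 windows of small-subunit protein genes (80%). Within 20 bases of the start, a run of at least 7 counted from a C was found in 32 of 38 (84.2%) and in 21.3% of protein-coding genes. The ETS-type motif CCGGAAG, searched on both strands of the whole window, was present in 12 of 38 windows (31.6%) and in 14.4% of protein-coding genes. AAGATGGC, a YY1-type motif searched likewise, was present in 4 of 38 (10.5%) against 3.98%. TATAAA, 45 to 15 bases before the start, was present in 1 of 38, RPLP0 (2.63%), against 3.74%. These matches describe the letters of the windows and are not measured start sites or binding sites.

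The stretches below run from 40 bases before to 20 bases from the annotated start, 5′ to 3′, with the pyrimidine run in capitals. Runs and their lengths are counted from the C, and pyrimidines just before it, as in RPL27, RPLP2 and RPL36A, stay in lower case. The stretches are of genes on which the comparison turns, first those highest in KD, then RPL11 of the 5S complex and the P-stalk genes, then those with the lowest or least certain values. RPL27 and RPL17 have their run outside the 3-base limit, and RPL11 has none of at least 7 within 20 bases. The run of RPL27 is 15 bases long and continues past the end of its printed stretch, which shows the first 9.
RPL27 (chr17:42998379-42998438, plus strand): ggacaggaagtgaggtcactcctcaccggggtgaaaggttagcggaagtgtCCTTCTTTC
RPL31 (chr2:101002249-101002308, plus strand): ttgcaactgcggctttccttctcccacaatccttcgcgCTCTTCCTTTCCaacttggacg
RPL36 (chr19:5690255-5690314, plus strand): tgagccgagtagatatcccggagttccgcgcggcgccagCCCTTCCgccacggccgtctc
RPL11 (chr1:23691739-23691798, plus strand): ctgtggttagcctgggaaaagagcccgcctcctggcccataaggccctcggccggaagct
RPLP0 (chr12:120201092-120201151, minus strand): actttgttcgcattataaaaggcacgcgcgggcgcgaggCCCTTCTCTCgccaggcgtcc
RPLP1 (chr15:69452778-69452837, plus strand): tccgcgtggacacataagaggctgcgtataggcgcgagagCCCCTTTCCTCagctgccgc
RPLP2 (chr11:809927-809986, plus strand): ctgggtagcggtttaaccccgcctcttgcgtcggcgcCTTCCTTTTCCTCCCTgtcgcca
RPL39 (chrX:119791611-119791670, minus strand): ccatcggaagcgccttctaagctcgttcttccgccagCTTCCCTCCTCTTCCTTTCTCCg
RPL36A (chrX:101390971-101391030, plus strand): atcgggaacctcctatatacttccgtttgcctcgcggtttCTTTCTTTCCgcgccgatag
RPL17 (chr18:49492446-49492505, minus strand): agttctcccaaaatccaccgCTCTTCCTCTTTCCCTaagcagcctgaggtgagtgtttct

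The runs differ in length, from 7 bases in RPL36 to 22 in RPL39. In the GENCODE 29 annotation the 45 genes lie on 18 chromosomes, with 6 each on chromosomes 3 and 17 and 3 on X. Their coding sequences have a median of 471 bases (75 in RPL41 to 1281 in RPL4), against 1275 over protein-coding genes. Small nucleolar RNA genes, whose products guide the modification of ribosomal RNA, lie within 18 of the 45, 39 in all.

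Nearly all of the 45 genes were strongly expressed. Levels in CPM had a median over genes of 1015 (means of 6 libraries), with the middle of the distribution between 741 and 1394. Per kilobase of the principal annotated transcript, the median was 1011 CPM per kb, and 27 of the 45 ranked among the top 100 of 19596 protein-coding genes. RPL35 and RPL19, both at the peptide exit region, were highest at 2379 and 2358 CPM per kb, followed by RPL27, a surface protein, at 2250. RPL35 averaged 2498 ± 361 CPM per kb in KD and 2259 ± 387 in NC, and RPL19 averaged 2450 ± 243 and 2266 ± 95.7 (SD, n = 3 per group), so these neighbours did not differ beyond their spread. Annotated lengths shape this order: by coding length RPL37A and RPL41 led, with 6133 and 5960 CPM per kb, while RPL37, whose principal transcript is given as 7686 bases, moved from the 42nd place to the 5th.

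**Figure D1:**
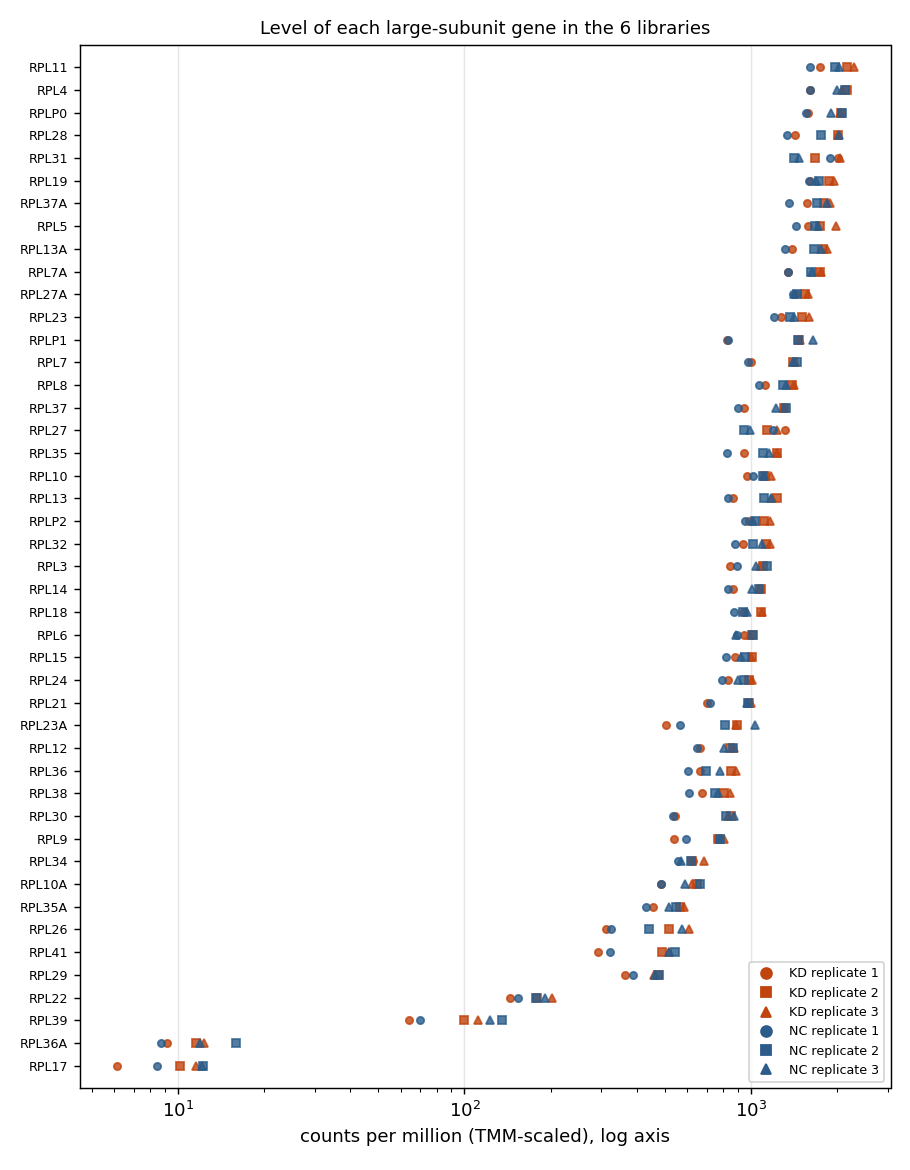
Level of each of the 45 large-subunit genes in the 6 libraries, in TMM-scaled CPM on a log axis, with colour for the group and symbol for the replicate number. RPL17 and RPL36A lie near 10 CPM, RPL39 and RPL22 between 64.2 and 202, and the other 41 genes between 293 and 2283, with the replicate 1 libraries mostly on the left.

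The lowest values per kilobase were those of RPL17 (15.1), RPL36A (27.1) and RPL22 (84.1). RPL17, a protein of the exit tunnel wall, received 109, 258 and 221 counts in the KD libraries numbered 1, 2 and 3 and 136, 280 and 278 in NC. RPL36A had 163, 294 and 235 counts in KD and 140, 366 and 274 in NC. Both genes lie inside annotated read-through genes on the same strand, which cover 91.0% of the bases of the principal RPL17 transcript and 77.6% of that of RPL36A. The read-through genes RPL17-C18orf32 and RPL36A-HNRNPH2 had 0 counts in all 6 libraries, and records that fall on more than 1 gene went to a summary line. For RPL26 another same-strand gene covers 59.0% of the principal transcript, and its level was 791 CPM per kb. The level of RPL17 and RPL36A in these tables is therefore uncertain, while RPL22, an RNA-binding protein whose gene is deleted in some T-cell leukaemias, has 11.1% of its principal transcript covered.

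Without regard to the replicate number, none of the 45 genes passed the test between KD and NC. The edgeR quasi-likelihood test with Benjamini-Hochberg adjustment over 16929 genes called 0 members, as it called 0% of all genes. At an unadjusted p under 0.05 there were 0 of the 45 and 52 of all genes. DESeq2 without the block also called 0 members, and its share over all genes was not counted. The log2 fold changes (KD over NC) ran from -0.25 to 0.26 with a median of 0.08, against a median of -0.00 over all tested genes, and 35 of the 45 were above 0 where 48.6% of all genes were. Standard errors of 0.11 to 0.32 were wide against these differences. The 95% interval lay inside a 1.5-fold change in either direction for 35 of the 45. The sign of this median rested on single libraries: it was 0.18 without KD replicate 1, 0.14 and 0.16 without NC replicates 2 and 3, and -0.03, -0.02 and -0.02 without NC replicate 1, KD replicate 2 and KD replicate 3. Without both replicate 1 libraries it was 0.08.

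The wide spread followed the replicate number. In 43 of the 45 genes the mean of the replicate 1 libraries was lower than the mean of the other 4, while 49% of all tested genes were lower there. The median over the 45 of this log2 difference was -0.33, and it reached -0.87 in RPLP1, -0.81 in RPL39 and -0.76 in RPL23A. The exceptions were RPL31 and RPL27, at 0.24 and 0.21. The profile over the libraries thus set RPL27 and RPL31 apart from the other members. Fits with the replicate number as a block take out this difference, and standard errors fell to between 0.04 and 0.13.

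**Figure D2:**
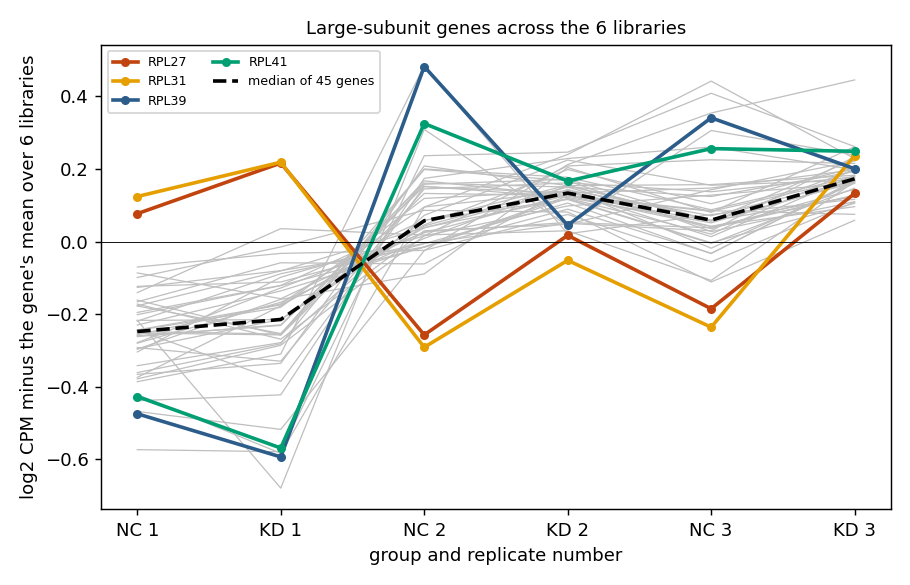
Log2 CPM of each large-subunit gene minus that gene's mean over the 6 libraries, by group and replicate number, where each line is 1 gene and joins libraries only to guide the eye. RPL27 and RPL31 are high in both replicate 1 libraries, where the median of the 45 genes (dashed) and RPL39 and RPL41 are low.

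With the block, RPL27 rose in KD and was the 1 member called of 45 in edgeR, while 0.142% of all tested genes were called higher and 0.0295% lower. RPL27 (ENSG00000131469.15, chromosome 17, 42998273 to 43002959, plus strand, GRCh38), one of the genes mutated in Diamond-Blackfan anaemia, reached 1311, 1142 and 1238 CPM in the KD libraries numbered 1, 2 and 3, against 1190, 944 and 993 in NC. Each KD library was above the NC library of its number, although the groups overlapped. The blocked log2 fold change was 0.24 (SE 0.05, 95% interval 0.15 to 0.34, edgeR adjusted p 0.0275), a 1.18-fold difference. The call did not hold when a pair was left out: the adjusted p in edgeR with the block was 0.572 without pair 1, 0.101 without pair 2 and 0.178 without pair 3, with log2 values of 0.30, 0.21 and 0.21. Those fits tested other sets of genes; over the 16929 genes of the full fit the adjusted p in edgeR was 0.331, 0.351 and 0.383.

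The other members highest in KD did not pass in edgeR. RPL31 (ENSG00000071082.11, chromosome 2, 101001715 to 101024032, plus strand), beside the peptide exit, had 2019, 1674 and 2045 CPM in KD and 1891, 1418 and 1473 in NC. Its blocked log2 value was 0.27 (SE 0.07, edgeR adjusted p 0.434), built from differences of 0.09, 0.24 and 0.47 in pairs 1, 2 and 3, so the pair with KD replicate 3 was the highest. Without pair 3 the value was 0.17 (edgeR adjusted p 0.602), and also 0.17 over the genes of the full fit (edgeR adjusted p 0.620). Without pair 2 it was 0.27 and passed (edgeR adjusted p 0.00535), but not over the genes of the full fit (edgeR adjusted p 0.343). The share of all genes called without pair 2 was not counted. RPL36, a surface protein, had 662, 851 and 886 CPM in KD and 602, 695 and 781 in NC, with a blocked log2 value of 0.20 (SE 0.04, edgeR adjusted p 0.125) and a higher KD library in each pair. RPL34, another surface protein, had 627, 625 and 686 CPM in KD and 555, 620 and 568 in NC. It was the 1 member of 45 whose groups did not overlap, where 1.67% of all tested genes had all KD libraries above all NC and 1.77% had them below. Its blocked log2 value was 0.15 (edgeR adjusted p 0.670), or 0.091 without pair 3 over the genes of the full fit.

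DESeq2 with the same block called 6 members higher and 0 lower, against 0.453% of the 7509 genes with an adjusted p called higher and 0.0666% lower (0.519% in either direction). These were RPL27, RPL31, RPL36, RPL35, RPL18 and RPL11, with DESeq2 log2 values of 0.25, 0.28, 0.21, 0.16, 0.17 and 0.15 and adjusted p from 0.000552 (RPL27) to 0.0183 (RPL31). RPL17 and RPL36A, among the lowest estimates, had no adjusted p in this DESeq2 fit and could not be called. With the block and no filter on low counts, edgeR called RPL27, RPL31 and RPL36 higher and RPL39 lower (-0.25, edgeR adjusted p 0.0145), against 0.0776% of 56716 genes called higher and 0.0423% lower. Both fits were added after the data were seen.

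**Figure D3:**
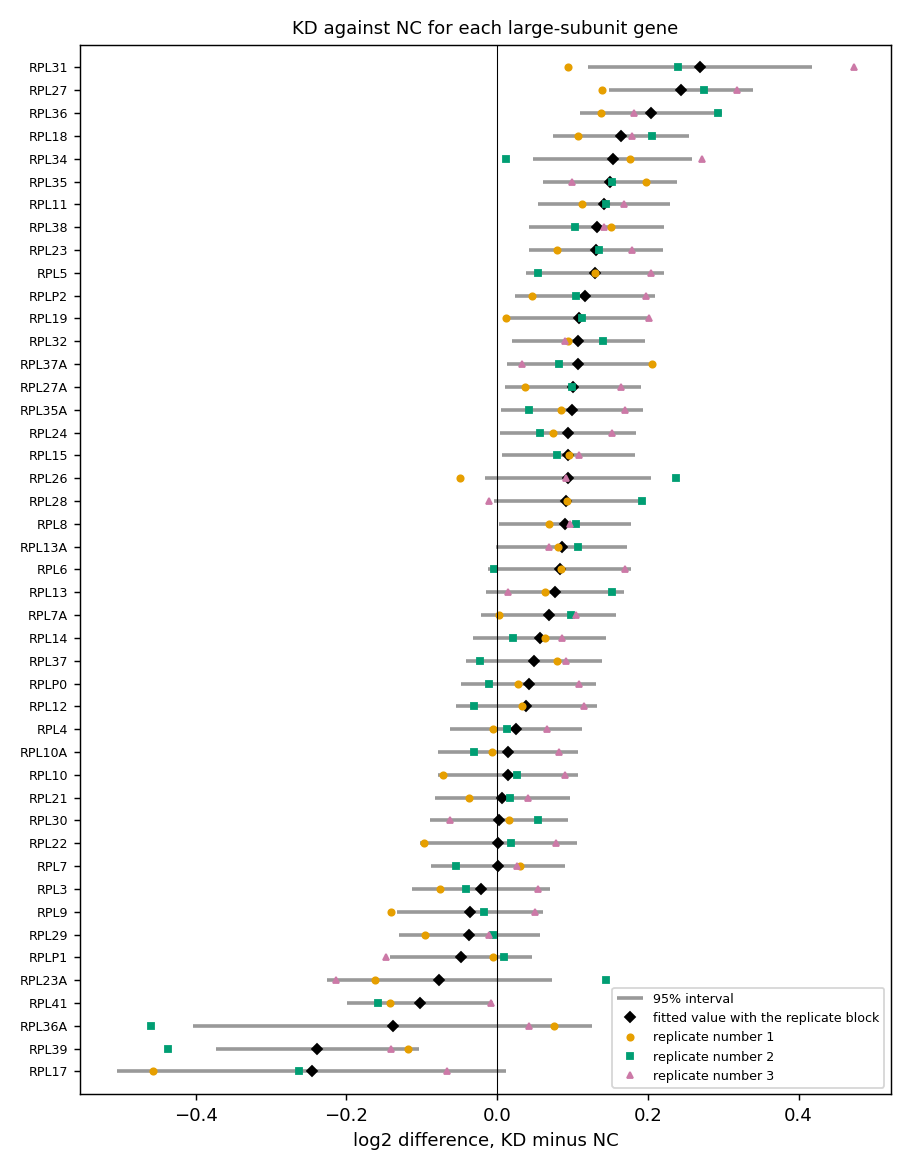
Log2 difference between KD and NC for each of the 45 large-subunit genes, with the fitted value of the edgeR fit with the replicate block (diamond), its 95% interval (bar) and the difference within each replicate number (coloured symbols). The fitted values run from -0.25 (RPL17) to 0.27 (RPL31), and 36 of 45 are above 0.

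As a group the estimates were small and mostly above 0. With the block 36 of the 45 estimates were above 0, where 48% of all tested genes were, and the median was 0.08 against -0.01 over all genes. The median within pairs 1, 2 and 3 was 0.06, 0.05 and 0.09, against 0.00, -0.00 and 0.00 over all genes. In pair 3 the members' share of unscaled gene counts was lower in KD (4.68%) than in NC (4.71%). The TMM factors there were 0.901 for KD and 0.977 for NC, and the part of this scaling in the pair 3 values was not tested. Of the 45, 23 were higher in KD in all 3 pairs and 4 were lower in all 3 (RPL17, RPL29, RPL39 and RPL41), where 13.1% and 12.6% of all tested genes were. At an unadjusted p under 0.05 in the blocked edgeR fit, 19 members were higher and 2 lower, where 2.9% and 2.07% of all tested genes were. The shares over all tested genes are not matched to the high level of the members. The members also varied together over the libraries, with 43 of the 45 lower in replicate 1, so such counts are not counts of independent genes. For 39 of the 45 the blocked 95% interval lay inside a 1.2-fold change and for all 45 inside a 1.5-fold change. Without pair 1 the blocked median was 0.08, without pair 2 it was 0.06 and without pair 3 it was 0.07. Over the genes of the full fit these medians were 0.09, 0.07 and 0.06.

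The P stalk, a flexible arm of RPLP0 and the acidic proteins RPLP1 and RPLP2 on a base that includes RPL12, recruits the translation factors. None of its 4 genes passed in edgeR with or without the block. RPLP0 had 1581, 2060 and 2052 CPM in KD and 1551, 2076 and 1903 in NC, a blocked log2 value of 0.04 (95% interval -0.05 to 0.13). RPLP1 had 827, 1466 and 1482 CPM in KD and 830, 1456 and 1641 in NC, with a blocked value of -0.05 (interval -0.14 to 0.05). In RPLP1 the libraries fell into a low pair from replicate 1 and 4 higher ones, and the groups overlapped throughout. RPLP2 had 986, 1109 and 1169 CPM in KD and 955, 1032 and 1019 in NC, and its value was 0.12 (interval 0.02 to 0.21, edgeR adjusted p 0.867), or 0.073 without pair 3 over the genes of the full fit. RPLP2 thus varied far less over the libraries than its partner RPLP1, whose log2 difference between replicate 1 and the others was -0.87 against -0.16 for RPLP2.

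RPL5 and RPL11 bind the 5S ribosomal RNA, and this complex also binds MDM2, the inhibitor of p53, when ribosome assembly is disturbed. Both genes were higher in KD in each pair, and neither passed in edgeR. RPL5 had 1578, 1738 and 1974 CPM in KD and 1442, 1673 and 1714 in NC, with a blocked log2 value of 0.13 (SE 0.04, edgeR adjusted p 0.682). RPL11 had 1737, 2170 and 2283 CPM in KD and 1607, 1963 and 2032 in NC, with a blocked value of 0.14 (SE 0.04, edgeR adjusted p 0.468). The groups overlapped in both genes.

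Among the 8 genes of the peptide exit region, 5 blocked estimates were above 0 and 3 below, and none passed in edgeR. They ran from RPL31 down to RPL17, so this group held both ends of the range. RPL39, a very small protein of the tunnel, gave 64.2, 100.01 and 111 CPM in KD and 69.8, 135 and 122.8 in NC. It was lower in KD in each pair, with a blocked log2 value of -0.24 (SE 0.06, edgeR adjusted p 0.377), and passed when pair 3 was left out (-0.29, edgeR adjusted p 0.0163; 0.193 over the genes of the full fit). Without pair 2 it was -0.15 (-0.13 over the genes of the full fit) and with copies added -0.18, and neither passed in edgeR. The share of all genes called without pair 3 was not counted. RPL17 had a blocked value of -0.25 (SE 0.12, interval -0.50 to 0.01). The counts of RPL17 are uncertain for the reason given above.

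The 8 genes of the subunit interface and catalytic core lay close to 0, with a blocked median of 0.01, 6 estimates above 0 and none passing in edgeR. RPL10, which completes the catalytic site late in assembly and is recurrently mutated in T-cell leukaemia, had 967, 1119 and 1179 CPM in KD and 1016, 1099 and 1108 in NC. Its blocked value was 0.01 (interval -0.08 to 0.11). RPL41, the shortest protein of the set, had 293, 488 and 516 CPM in KD and 323, 544 and 519 in NC, with a value of -0.10 (interval -0.20 to -0.01, edgeR adjusted p 0.982). RPL23 was the highest of this group at 0.13 (edgeR adjusted p 0.641). Among the 23 other surface and body proteins 20 estimates were above 0, with a median of 0.09 and RPL27 as the 1 call. RPL22 in this group stood at 0.00 (interval -0.10 to 0.11), with 144, 179 and 202 CPM in KD and 154, 177 and 192 in NC.

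A part of the reads of these families was counted on processed pseudogenes. Genes named as copies of the 45 (member symbol, P and a number) numbered 1083, with a median of 15 per member, and held 6.43% to 8.94% of the counts of members and copies together. The share in KD and NC was 8.94% and 8.10% in replicate 1, 6.98% and 6.43% in replicate 2 and 7.55% and 7.03% in replicate 3. It was higher in KD in each pair, with means of 7.82% ± 1.01 and 7.19% ± 0.85 (SD, n = 3 per group). The groups overlapped (exact permutation test, two-sided, p = 0.6, where 3 against 3 allows no p below 0.1; exact sign-flip test over pairs p = 0.25, the smallest it allows).

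By family the direction was mixed: over all 45 members the share on copies was higher in KD in all 3 pairs in 14 and lower in all 3 in 12. Over all 32 small-subunit genes it was higher in 7 and lower in 7. The split by size of the share was chosen after the values were seen. For 13 members the copies held at least 10% of the family's counts on average, and in 11 of these 13 the share was higher in KD in all 3 pairs and in 0 lower in all 3. In the other 32 it was higher in 3 and lower in 12. Of 11 small-subunit genes with a share of at least 10%, 6 were higher in all 3 pairs and 0 lower. RPL36A and RPL17 led, with 94.1% and 89.3% of their family's counts on copies, mostly on 1 copy each (RPL36AP37 and RPL17P39). Both are among the 11. Reads of these 2 parent genes can go to a summary line because of the read-through genes described above, so their shares on copies are uncertain. In the RPL6 family, 39.5%, 34.4% and 39.1% of the counts lay on copies in KD and 36.6%, 29.2% and 34.8% in NC. For RPL3, whose protein reaches the catalytic centre, KD gave 32.8%, 25.8% and 29.1% and NC gave 27.4%, 21.8% and 24.7%. For RPL15 the shares were 28.4%, 22.8% and 24.6% against 24.2%, 20.1% and 21.4%. RPL13A, at 14.8% in both groups, and RPL21 were the 2 of the 13 without a higher share in every pair. A read placed on a copy can come from the parent, so these shares do not show that copies are transcribed.

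**Figure D4:**
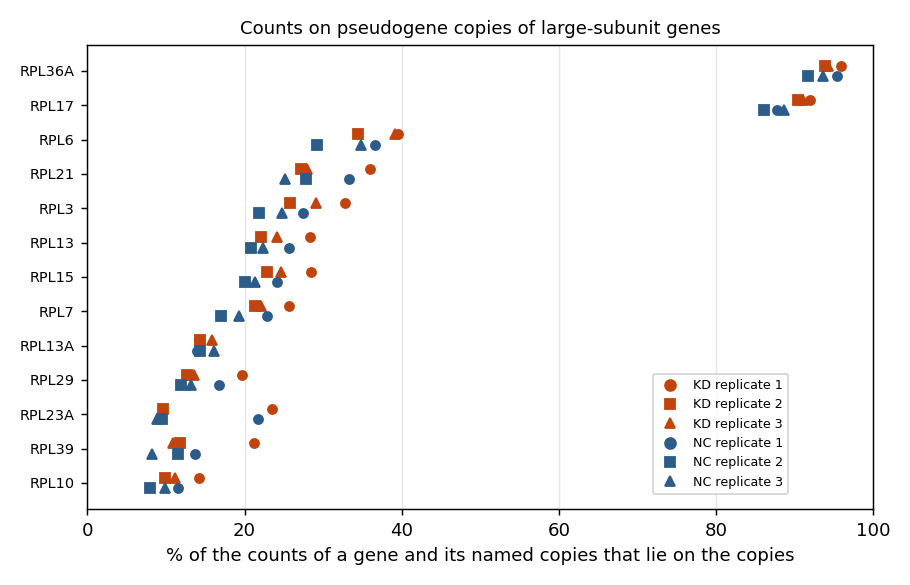
Share of the counts of a gene and its named pseudogene copies that lies on the copies, in percent, for the 13 members where it averaged at least 10%, with colour for the group and symbol for the replicate number. The KD libraries lie to the right of the NC libraries of the same number in 11 of the 13 families; over all 45 families the share was higher in KD in all 3 pairs in 14 and lower in 12.

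Adding the copies to their parents left the call of RPL27 in place, whose copies hold few reads (blocked log2 value 0.24, edgeR adjusted p 0.0346). It turned the sign for RPL17 and RPL36A, whose family sums had blocked values of 0.23 and 0.14 (edgeR adjusted p 0.191 and 0.852) in place of -0.25 and -0.14. With copies added 38 of the 45 blocked estimates were above 0, and the median was 0.09.

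Summed over reads, the 45 genes held 4.39%, 4.81% and 4.68% of the gene counts in the KD libraries numbered 1, 2 and 3, against 4.28%, 4.54% and 4.71% in NC. KD averaged 4.63% ± 0.22 and NC 4.51% ± 0.22 (SD, n = 3 per group), a difference within the spread (exact permutation test, two-sided, p = 0.6). The difference of 0.117 percentage points rested on single libraries: it was 0.00088 without NC replicate 1, 0.0235 without KD replicate 2, 0.217 without NC replicate 3 and 0.237 without KD replicate 1. Leaving the mitochondrially encoded genes, 10.7% of the gene counts of KD replicate 3 and 3.70% to 5.79% elsewhere, out of the total gave 4.66%, 4.9996% and 5.24% in KD and 4.499%, 4.81% and 4.89% in NC, higher in KD in each pair (exact permutation test, two-sided, p = 0.4). The 32 small-subunit protein genes held 3.30%, 3.40% and 3.36% in KD and 3.21%, 3.15% and 3.26% in NC, and here the groups did not overlap (exact permutation test, two-sided, p = 0.1, the smallest possible).

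The ratio of large-subunit to small-subunit counts was 1.33, 1.41 and 1.39 in KD and 1.33, 1.44 and 1.45 in NC. It was lower in KD in each pair (KD minus NC -0.00404, -0.0261 and -0.0553 in pairs 1, 2 and 3), and the groups overlapped (exact permutation test, two-sided, p = 0.5; exact sign-flip test p = 0.25, the smallest it allows). The difference of the means, -0.0284, was -0.0038 without KD replicate 1, -0.0116 and -0.0084 without NC replicates 2 and 3, -0.0465 without KD replicate 2 and -0.0653 without NC replicate 1. By genes rather than reads the subunits were alike in the middle of their range, with blocked medians of 0.08 for both. Of the 32 small-subunit genes 29 had a blocked estimate above 0 and 2 were called higher in the blocked edgeR fit, RPS29 among them (log2 value 0.31, SE 0.04, adjusted p 0.00122). The difference between the subunits in the number called was not tested.

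**Figure D5:**
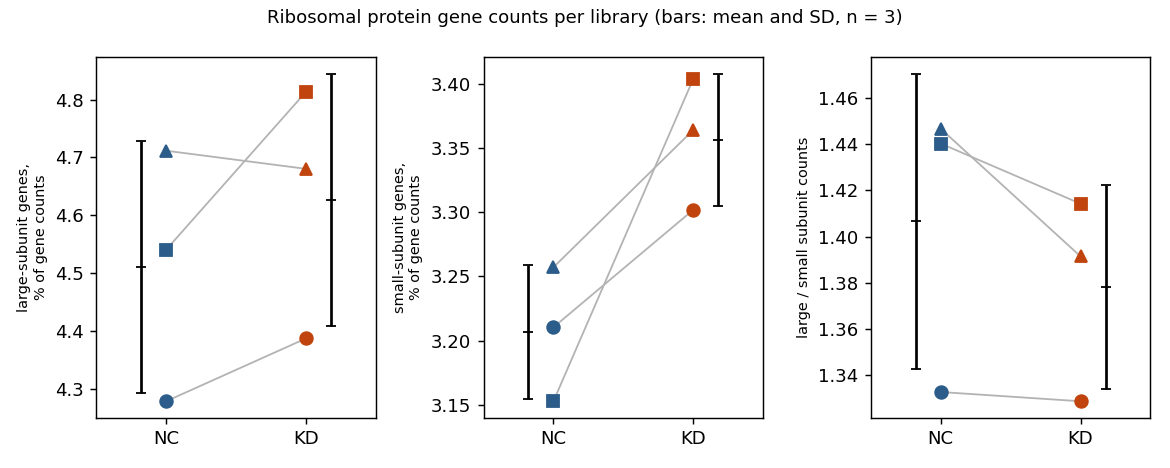
Large-subunit share and small-subunit share of the gene counts, in percent, and the ratio of large to small subunit counts, per library (circle, square and triangle for replicates 1, 2 and 3, grey lines joining equal numbers, bars for mean and SD with n = 3). The axes do not start at 0; the small-subunit shares of KD (3.30% to 3.40%) lie above those of NC (3.15% to 3.26%), while the other panels overlap.

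None of the tested paralogues of the members passed in edgeR with or without the block. RPL36AL, a paralogue of RPL36A, had 182, 187 and 205 CPM in KD and 165, 159 and 169 in NC, with no overlap of the groups, and its blocked value was 0.22 (SE 0.05, edgeR adjusted p 0.134). RPL7L1 had 188 ± 17.0 and 189 ± 14.3 CPM, RPL22L1 34.1 ± 1.83 and 33.1 ± 2.40, RPL26L1 31.5 ± 3.68 and 29.4 ± 2.29 and RPL39L 21.3 ± 6.76 and 20.8 ± 6.02 in KD and NC (SD, n = 3 per group). RPL3L and RPL10L, at most 4.05 CPM in any library, did not pass the filter on low counts.

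Of 42 assembly and export factors of the large subunit, none passed in edgeR with or without the block, with 25 blocked estimates above 0 and a median of 0.01. The smallest p belonged to RSL24D1, which holds the place of RPL24 in the assembling subunit (0.12, edgeR adjusted p 0.999), and XPO1, the export receptor (-0.08, edgeR adjusted p 0.999). Of 16 regulators of TOP messenger RNAs, 7 blocked estimates were above 0, the median was -0.01 and none passed. SSB, the La protein, stood at 0.10 and CNBP at 0.08, both with an edgeR adjusted p of 0.999.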

How the data were processed

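The deposited files, 1 per library, hold raw read counts per Ensembl gene in htseq-count layout. Tools named in the submitters' processing notes are STAR 2.7.10a for alignment software, HTSeq 0.11.1, FastQC 0.11.8 and DESeq2, with build hg38. No source used here gives the annotation release or the strand setting, so reads of overlapping antisense genes may be mixed. The 5 summary lines stayed out of library sizes and tests, leaving 33.52% to 60.16% of records on genes. Identifiers were looked up in a name list without their version (62686 of 62703 found), and 42342 of them had a symbol. edgeR 4.0.16 in R 4.3.3 (filterByExpr, TMM, robust quasi-likelihood fit) tested KD against NC over all genes at a Benjamini-Hochberg adjusted p under 0.05, and DESeq2 1.42.0 was an alternative. The fits were tested on simulated data, with 50 seeded changes of each size. Without the block, 0% of 1.2-fold and 28% of 1.5-fold changes were recovered, and with it 48% and 84%. Seeded genes were picked at random among those with a fitted mean of at least 50 counts. Members mostly lie far above this, with a median of 13356 counts in the lowest library, so these percentages are not recovery rates for the members. Each library was drawn independently, and without the block the draws lacked the difference shared by the replicate 1 libraries. With standard errors of 0.11 to 0.32 for the members, the lack of calls without the block says little about changes of 1.2-fold. Differences within pairs use log2 CPM with a prior count of 2. Lengths, overlaps and positions come from GENCODE 29 (GRCh38), which may differ from the annotation of the authors. The study calls its replicates independent. P-values without the block measure the spread between these 6 libraries. Those of the blocked fits measure only the spread that remains once differences between replicate numbers are taken out.

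KD and NC libraries of equal number deviated together (correlations across genes of 0.89, 0.62 and 0.61 for numbers 1, 2 and 3, each above the limit of 0.1), so values with the number as a block are given. Between numbers 2 and 3 the correlations were 0.59 (KD 2 with NC 3) and 0.55 (KD 3 with NC 2), also above this limit. Across the 45 members they were 0.76 and 0.37, against 0.91, 0.60 and 0.77 within numbers 1, 2 and 3. The correlations thus set replicate 1 apart and do not clearly separate pair 2 from pair 3. Blocked values and counts over all 3 pairs match those libraries by number alone.

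The members and lists were chosen with earlier results of these data known. Named were members called in the edgeR fit with or without the block, RPLP0, RPLP1, RPLP2, RPL5, RPL11, RPL10 and RPL22, the 3 highest and 3 lowest per kb and in blocked fold change, and in each direction the 3 with the smallest p without the block. Other members named were chosen after their values were seen. The lowest count of a member in any library was 109. Intervals of fits without the block cover the spread between libraries. Blocked intervals cover only the spread left after differences between replicate numbers are taken out.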

Additional observations from a re-analysis of the deposited data

How the results depend on the processing

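Calls depended on the replicate block. Without it, 0 members were called in all 11 other settings tried, leave-outs included. With it, 1 was called higher, also with upper-quartile scaling or copies added; 3 higher and 1 lower came with no filter on low counts and 6 higher with DESeq2. Leaving out a pair gave 0 to 1 higher and 0 to 1 lower. Shares over all genes are given above for edgeR with and without the block, blocked DESeq2 and the blocked fit with no filter. For the other settings they were not counted, so calls there have no background beside them. The median log2 difference ran from -0.030 to 0.18 over single-library leave-outs and from 0.059 to 0.085 over pair leave-outs with the block (0.060 without pair 3 over the full gene set). The share of counts on members differed by 0.00088 to 0.237 percentage points and the subunit ratio by -0.065 to -0.0038 over single-library leave-outs. Median levels per kb were 254 CPM by all exon bases and 1856 by coding bases.

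Values of 5 named members turned sign when libraries were left out. Over single-library leave-outs RPLP0 ran from -0.068 to 0.16, RPLP1 from -0.30 to 0.18, RPL10 from -0.067 to 0.10, RPL22 from -0.13 to 0.14 and RPL36A from -0.34 to 0.10. With the block and a pair left out, RPLP1 reached 0.0058 (-4.3e-05 over the full gene set). RPL10 reached -0.0058 and -0.019 (0.0076 and -0.025 over the full gene set). Over the full gene set RPLP1 thus did not turn, and RPL10 turned only without pair 3. RPL22 reached -0.022 and -0.033 (-0.0084 and -0.039 over the full gene set) and RPL36A 0.041 (0.056 over the full gene set). RPL22 also stood at -0.0014 with copies added and, with the block, at -0.0070 with copies added, -0.00090 with upper-quartile scaling and -0.010 with no filter. RPL17 and RPL36A, among the lowest estimates, turned with copies added: RPL17 stood at 0.24 and RPL36A at 0.15, and with the block at 0.23 and 0.14. The cause was not tested. The fits with the block plus DESeq2, other scaling or no filter, those without both replicate 1 libraries and those over the full gene set were added after the data were seen.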
